A study of Macaca mulatta with 8 samples.

Results

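NLRP5, NLRP13 and OOEP are genes of the maternal store, the RNA and protein that a mature egg carries into the first divisions of the embryo. They were described in oocytes of the rhesus macaque at metaphase II, the stage at which the egg waits for fertilization. The members are the probe sets of a 1-colour Affymetrix rhesus array whose single gene symbol is NLRP5, NLRP13 or OOEP. Each symbol had 1 probe set, so 3 genes of 12993 named on the array are described here. The identifiers are MmuSTS.1762.1.S1_at for NLRP5, MmugDNA.30103.1.S1_at for NLRP13 and MmugDNA.14479.1.S1_at for OOEP. All 3 passed the filter on low values, and all 3 lay above background on every array.

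The series set 4 arrays of oocytes that had matured in the animal against 4 arrays of oocytes matured in culture. Each array was hybridised with RNA, amplified in 2 rounds, of a pool of 4 metaphase II oocytes. The labels name no allele, drug, dose, animal or age, and do not say whether pools of a group came from different animals. The p-values therefore measure the spread between these pools. In such pools, less transcript in every oocyte and loss of it from some of the oocytes cannot be told apart.

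NLRP5, also known as MATER, and OOEP, also known as FLOPED, are subunits of the subcortical maternal complex, a protein assembly under the membrane of the mammalian oocyte and early embryo. NLRP5 belongs to the family of proteins with a NACHT domain, leucine-rich repeats and a pyrin domain, and OOEP has an RNA-binding-like KH fold. Embryos of mouse females that lack either gene arrest in early cleavage. NLRP13 is another member of the NLRP family, several of whose genes are transcribed mainly in oocytes, while others such as NLRP3 act as sensors of innate immunity.

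The values were MAS5 signals, a linear intensity scale, and each array had been scaled to a common mean, with a 2% trimmed mean of 150.01 to 150.02. The background of each array was set at the 95th percentile of its 59 controls without target in the sample, and ran from 15.7 to 27.0. The labelled cell type was checked against its markers. All 11 oocyte markers named on the array were tested, and 10 or 11 of them lay above background on each array. Their summed signal was 38073 to 61745 in vivo and 39394 to 49341 in vitro. Of 16 granulosa and cumulus markers, 14 to 16 lay above background, with a summed signal of 24410 to 27171 in vivo and 23404 to 32223 in vitro. All 16 were tested, with 8 log2 fold changes above 0 and 8 below and a median of -0.011. In the limma test described below, 5 of the 16 had an unadjusted p under 0.05, against 12.0% of all tested genes. All 5 were higher in vitro: HSD3B2 (log2 fold change 2.28), EFEMP1 (1.96), INHA (0.59), INHBA and STAR. INHBA and STAR also passed after adjustment, 2 of 16 where 0.251% of all tested genes passed. Their log2 fold changes were 3.08 and 2.60 (limma adjusted p = 0.00216 and 0.00783). STAR did not pass without in vitro replicate 1 or 3 (limma adjusted p = 0.0520 and 0.0540), and neither passed in a fit without the intensity trend (limma adjusted p = 0.0613 for INHBA and 0.150 for STAR). Of 10 blood and immune markers, 4 to 7 lay above background in vivo and 1 to 5 in vitro, with summed signals of 236 to 361 and 133 to 216. The granulosa sums overlapped between groups and the blood sums did not. SERPINE2, the brightest granulosa and cumulus marker, averaged 13703 in vivo and 12488 in vitro. The granulosa sum therefore says little about dimmer markers such as INHBA and STAR. No marker was at 0 on any array, though 6 of the 10 blood and immune markers were too dim to be tested. The part of these cells in the results below was not tested.

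The comparison asked whether the level of each transcript depended on where the oocytes had matured. NLRP5 was lower on every array of oocytes matured in culture. The mean signal over the 4 pools of each group was 2423 ± 1064 (SD) in vivo and 1128 ± 225 (SD) in vitro. NLRP13 had the opposite sign, at 2506 ± 340 in vivo against 3411 ± 353 in vitro (SD, n = 4 each). OOEP was far above background in both groups, at 8090 ± 1928 in vivo against 6661 ± 831 in vitro (SD, n = 4 each). None of the 3 genes passed the limma test at an adjusted p of 0.05, which 39 of 26378 tested probe sets did (0.148%).

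**Figure D1:**
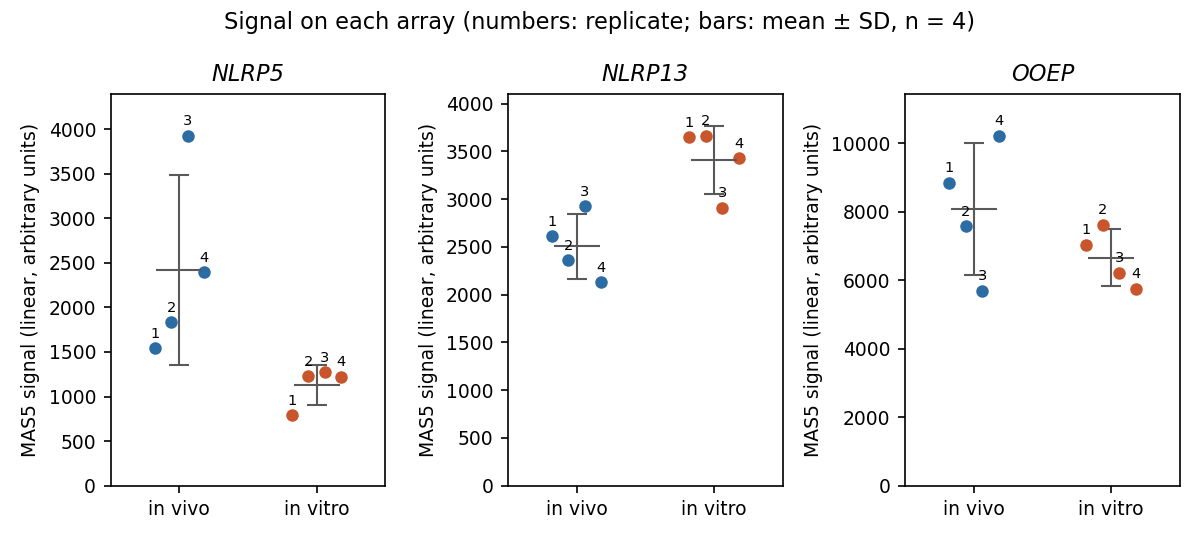
MAS5 signal (linear, arbitrary units, each vertical axis from 0) of NLRP5, NLRP13 and OOEP on the 4 in vivo and 4 in vitro arrays. Points are arrays numbered by replicate, and horizontal marks with whiskers are the mean ± SD. All 4 in vitro arrays of NLRP5 lie at or below 1271 and all 4 in vivo arrays at or above 1540, while the groups overlap for NLRP13 and OOEP.

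For NLRP5, the signal in the 4 in vivo pools was 1540, 1832, 3929 and 2392 for replicates 1 to 4. In the 4 in vitro pools it was 793, 1228, 1271 and 1221. The highest in vitro array thus lay below the lowest in vivo array, and the groups did not overlap. Groups that did not overlap and were lower in vitro were found at 3.15% of all tested probe sets. The coefficient of variation was 43.9% in vivo, where replicate 3 stood well above the rest, and 19.9% in vitro, where replicate 1 stood below the rest.

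The log2 fold change of NLRP5 was -1.03 ± 0.26 (SE), in vitro minus in vivo. That is a 2.04-fold lower level in vitro, with a 95% interval from 1.38-fold to 3.01-fold lower. The unadjusted p of the limma fit was 0.00142, and 0.705% of the tested probe sets had a smaller one. The limma adjusted p was 0.193, so the difference did not pass the test over all probe sets. The sign was negative with each of the 8 arrays left out in turn. Without in vivo replicate 3 the log2 fold change was -0.77 (limma adjusted p = 0.289), and without in vitro replicate 1 it was -0.87 (limma adjusted p = 0.501). Without in vivo replicate 1 it was -1.21, the furthest from 0 among these fits (limma adjusted p = 0.0823).

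Signal from the 5' end of control transcripts, which falls where RNA is short or poorly amplified, was set beside NLRP5. The log2 ratio of 3' to 5' signal of EEF1A1 was 1.44, 2.95, 1.44 and 3.68 on in vivo replicates 1 to 4, and between 1.84 and 2.30 on the in vitro arrays. The log2 ratio of beta-actin was 6.23, 7.23, 5.68 and 6.75 on in vivo replicates 1 to 4 and 5.68 to 6.75 in vitro, and that of GAPDH was 4.62, 5.63, 4.37 and 4.63 against 4.77 to 5.56. In vivo replicate 3, with the highest NLRP5 signal, had the lowest in vivo ratio of beta-actin (5.679) and of GAPDH. In vitro replicate 1, with the lowest NLRP5 signal, had a beta-actin ratio of 5.675, the lowest of all 8 arrays. The part of these ratios in the result was not tested beyond the fits that follow. With the EEF1A1 ratio in the fit, the log2 fold change of NLRP5 was -1.05 (limma adjusted p = 0.0600). With the ratio of beta-actin it was -1.06 and with that of GAPDH -0.97 (limma adjusted p = 0.130 and 0.352).

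NLRP13 gave signals of 2611, 2360, 2923 and 2132 on in vivo replicates 1 to 4. On the in vitro arrays it gave 3647, 3665, 2908 and 3425. The in vitro arrays were the higher ones except that in vitro replicate 3 lay just below in vivo replicate 3, so the groups overlapped at that point. NLRP13 varied least among the 3 genes, with a coefficient of variation of 13.6% in vivo and 10.3% in vitro. Its log2 fold change was 0.45 ± 0.16 (SE), or 1.36-fold higher in vitro, with a 95% interval from 1.07-fold to 1.73-fold. The limma unadjusted p was 0.0150 and the limma adjusted p was 0.359. NLRP5 and NLRP13 were thus 2 of 3 genes with an unadjusted p under 0.05, a level reached by 10.3% of all tested probe sets. The 3 genes were chosen with earlier results of these data known, so this count is no test of them as a set. With an array left out, the log2 fold change of NLRP13 lay between 0.37 and 0.52.

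OOEP gave 8855, 7584, 5694 and 10229 on in vivo replicates 1 to 4, and 7039, 7621, 6227 and 5757 on the in vitro arrays. The in vitro values all lay within the range of the in vivo values. In vivo replicate 3, where NLRP5 was highest, had the lowest OOEP signal of all 8 arrays, and in vivo replicate 4 had the highest. The log2 fold change was -0.26 ± 0.18 (SE; limma adjusted p = 0.671). Its 95% interval ran from -0.65 to 0.14, so differences up to 1.57-fold lower or 1.10-fold higher in vitro lay within it. The coefficient of variation was 23.8% in vivo and 12.5% in vitro. Without in vivo replicate 4 the log2 fold change was -0.13, and without in vivo replicate 3 it was -0.41 (limma adjusted p = 0.755 and 0.473).

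Whether the genes changed unequally was tested on their log2 difference within each array, which removes any scaling of a whole array. The level of one probe set says nothing against that of another, so only the change between groups was read. NLRP5 minus NLRP13 was -0.76, -0.36, 0.43 and 0.17 on in vivo replicates 1 to 4. It was -2.19, -1.57, -1.19 and -1.48 on in vitro replicates 1 to 4. These groups did not overlap, and the difference changed by -1.48 from in vivo to in vitro. The exact two-sided permutation p was 0.0286 over 70 assignments, the smallest that 4 against 4 arrays can give, and 0.0857 after Benjamini-Hochberg adjustment over 3 pairs. The genes were chosen with earlier results of these data known, so the p-values of the pairs are no independent test. How often other pairs of genes do not overlap was not counted. With in vivo replicate 1 left out the change was -1.68, and with in vivo replicate 3 left out it was -1.29, each with an adjusted exact permutation p of 0.0429.

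NLRP5 minus OOEP changed by -0.77, with a range of -2.52 to -0.53 in vivo and -3.14 to -2.23 in vitro. The groups overlapped, with only in vivo replicate 3 far above the other arrays (exact two-sided permutation p = 0.143, adjusted 0.143). The change was -0.35 without in vivo replicate 3 (exact permutation p adjusted over the 3 pairs, 0.286) and -1.01 without in vivo replicate 1 (exact permutation p adjusted over the 3 pairs, 0.0429). OOEP minus NLRP13 changed by -0.70, with a range of 0.96 to 2.26 in vivo and 0.75 to 1.10 in vitro (exact two-sided permutation p = 0.0857, adjusted 0.129). It changed by -0.94 without in vivo replicate 3 (exact permutation p adjusted over the 3 pairs, 0.0429). NLRP5 and OOEP thus each had a negative change against NLRP13. NLRP13 itself had a log2 fold change of 0.45, so a gene with no change would also be negative against NLRP13. OOEP alone had a log2 fold change of -0.26 ± 0.18 (SE). A negative change against NLRP13 is therefore nothing particular to the complex. With all 8 arrays, none of the 3 pairs passed the adjusted threshold. A single pair at the smallest possible p adjusts to 0.0857, so NLRP5 minus NLRP13 could not pass unless another pair also reached that p. The 3 differences also depend on each other, since NLRP5 minus NLRP13 is NLRP5 minus OOEP plus OOEP minus NLRP13.

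**Figure D2:**
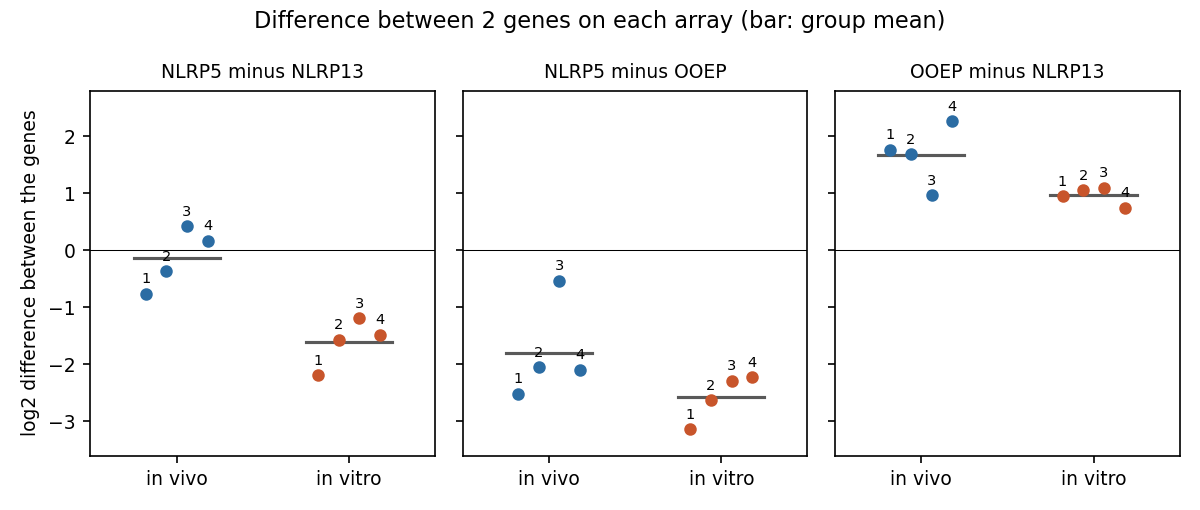
Log2 difference between 2 genes on each array (vertical axis) for NLRP5 minus NLRP13, NLRP5 minus OOEP and OOEP minus NLRP13, with points numbered by replicate and a bar at each group mean. NLRP5 minus NLRP13 lies between -0.76 and 0.43 in vivo and between -2.19 and -1.19 in vitro, without overlap, and the other pairs overlap.

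The other named parts of the subcortical maternal complex and its relatives were measured beside NLRP5 and OOEP. Of 10 genes listed for the complex, 6 were named on the array and 5 were tested. None of these 5 passed the limma test, and 1 had an unadjusted p under 0.05. That gene was NLRP5, a member chosen with earlier results of these data known. The median log2 fold change of the 5 was -0.063, against -0.019 over 9560 tested genes. Of all tested genes, 0.251% passed at their brightest probe set and 12.0% had an unadjusted p under 0.05. KHDC3L, a KH-domain subunit whose loss in women leads to hydatidiform moles, had a mean of 6334 ± 2088 in vivo against 6209 ± 691 in vitro (SD, n = 4 each). Its log2 fold change was 0.026, with a 95% interval from -0.43 to 0.48. NLRP7, mutated in the same disease, had log2 fold changes of 0.095 at its brightest probe set and 0.31 and 0.0077 at the others. NLRP4 averaged 17755 ± 7406 in vivo against 16161 ± 2135 in vitro (SD, n = 4 each), with a log2 fold change of -0.063. ZBED3 was too dim to be tested, and TLE6, PADI6, NLRP2 and CFL1 were not analysed here.

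Of 14 NLRP genes, 11 were named on the array and 9 were tested, and none passed the limma test. The unadjusted p was under 0.05 for 2 of the 9, against 12.0% of all tested genes. Those were NLRP5 and NLRP13, members chosen with earlier results of these data known, so this count is no test of the family. The median log2 fold change of the 9 was -0.063, with 6 below 0 and 3 above. NLRP5 was at the lower end of this range and NLRP13 at the upper end. NLRP14, required for early development in mouse, had 2 probe sets that differed from each other. The brighter one gave 3037 ± 618 in vivo against 2788 ± 299 in vitro (SD, n = 4 each; log2 fold change -0.11). The other gave 2239 ± 875 and 1438 ± 113, with a log2 fold change of -0.53 and a limma adjusted p of 0.530. For this probe set it was -0.87 without in vivo replicate 1 (limma adjusted p = 0.0784) and -0.36 without in vivo replicate 3 (limma adjusted p = 0.757). NLRP11 averaged 9041 ± 2454 in vivo against 8746 ± 738 in vitro (SD, n = 4 each), a log2 fold change of -0.014. Of the inflammasome sensors, NLRP1 had 0.40 at its brightest probe set, and -0.041 and 0.022 at its other probe sets, which were dim. NLRP3 had -0.49, from dim signals of 58.0 ± 18.1 in vivo against 38.2 ± 8.67 in vitro (SD, n = 4 each). The value at the brightest NLRP1 probe set was 0.11 when in vivo replicate 3 was left out, and 0.75 when replicate 1 was. NLRP6 and NLRP10 were too dim to be tested, and NLRP9 and NLRP12 were not analysed here.

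**Figure D3:**
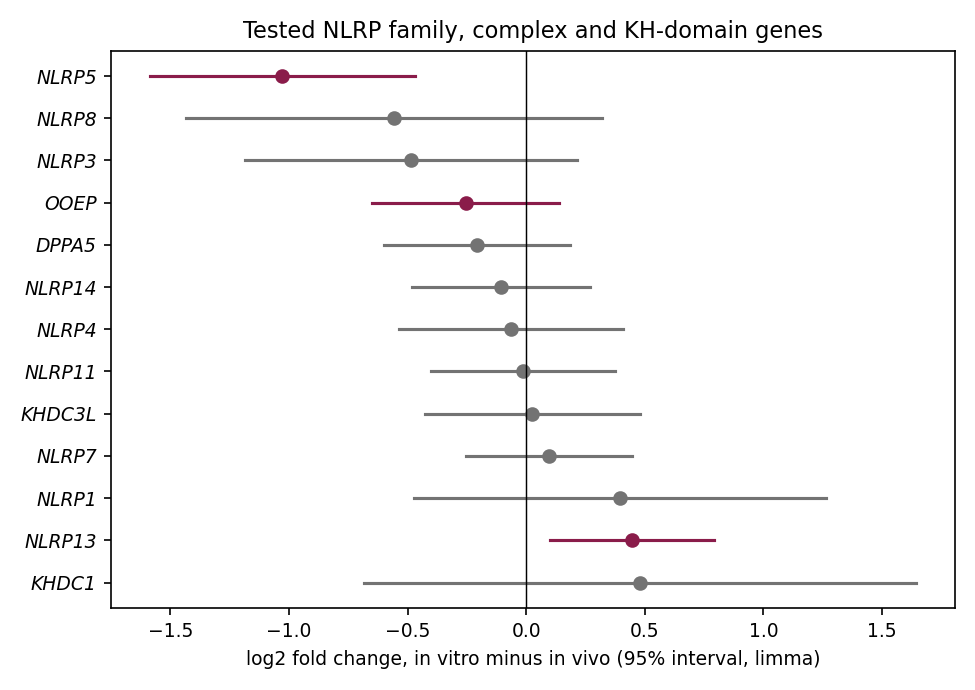
Log2 fold change, in vitro minus in vivo, with the 95% interval of the limma fit (horizontal axis) for the 13 tested genes of the NLRP family, the subcortical maternal complex and the KH-domain list, each at its brightest probe set. NLRP5, NLRP13 and OOEP are in dark red, and the intervals of NLRP5 (-1.59 to -0.47) and NLRP13 (0.10 to 0.79) lie on opposite sides of 0 while the other 11 include it.

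The place of the genes in the genome was taken from the RefSeq annotation of the assembly T2T-MMU8v2.0, by order alone. NLRP5 and NLRP13 lie in a run of NLRP genes in the order NLRP11, NLRP4, NLRP13, NLRP8 and NLRP5. The annotated spans of NLRP8 and NLRP5 overlap, as do those of NLRP4 and NLRP13. Strand, exons and probe positions were not examined, so whether a probe set reads both genes of such a pair is unknown. NLRP8 was at 482, 790, 2399 and 389 on in vivo replicates 1 to 4, and at 457, 566, 539 and 538 on the in vitro arrays. Its highest array was in vivo replicate 3, as for NLRP5, and its groups overlapped (log2 fold change -0.56, limma adjusted p = 0.678). The log2 fold change of NLRP8 was -0.016 once in vivo replicate 3 was left out. NLRP8 has another probe set, too dim for the test.

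OOEP lies beside KHDC3L and DPPA5, followed by KHDC1 and KHDC1L, genes that share a KH domain with it. None of the 4 tested genes of this KH-domain list of 5 passed the limma test, and 0 had an unadjusted p under 0.05, against 0.251% and 12.0% of all tested genes. The list had a median log2 fold change of -0.091. DPPA5, a marker of pluripotent cells, averaged 2948 ± 424 in vivo against 2570 ± 542 in vitro (SD, n = 4 each), with a log2 fold change of -0.21. KHDC1 was dim, at 27.9 ± 25.8 in vivo against 34.6 ± 13.8 in vitro (SD, n = 4 each), with 0.48 on the log2 scale, and KHDC1L was too dim to be tested. OOEP, DPPA5 and KHDC3L thus had log2 fold changes within 0.26 of 0, each with a 95% interval that included 0.

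The spread between pools was described over the 13 tested genes of these lists. The SD of the log2 signal was larger in vivo for 12 of 13 genes, against 69.4% of all 9560 tested genes. Its median was 0.45 in vivo and 0.18 in vitro over the 13 genes, and 0.40 and 0.28 over all tested genes. For NLRP5 the SD was 0.59 in vivo and 0.32 in vitro, for NLRP13 0.19 and 0.16, and for OOEP 0.36 and 0.18. The in vivo arrays also differed more in quality measures. Their EEF1A1 ratios, given above, spanned a wider range than those in vitro. In vivo replicate 4 had the highest EEF1A1 ratio, the highest summed oocyte markers (61745) and the smallest share of probe sets above background (49.9%). Their part in the spread was not tested. After quantile normalization the SD was larger in vivo for 13 of 13 genes, with medians of 0.35 in vivo and 0.14 in vitro, against 67.6% of all tested genes. The SE of the log2 fold change fell there from 0.22 to 0.065 for NLRP4, from 0.18 to 0.098 for NLRP11 and from 0.18 to 0.12 for OOEP. It did not fall for every gene. NLRP5, NLRP8 and NLRP13, given next, were dimmer than NLRP4, NLRP11 and OOEP, and the part of brightness in this was not tested. The SE rose from 0.26 to 0.28 for NLRP5 and from 0.41 to 0.44 for NLRP8, and was 0.16 in both fits for NLRP13. With in vivo replicate 3 or 4 left out, the SD was larger in vivo for 10 of 13 genes, against 61.9% and 62.6% of all tested genes.

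Maternal effect genes are those whose products the embryo needs from the egg. A wider list of such genes and of other genes that act in the oocyte was measured for comparison. Of 39 listed genes, 27 were named on the array and 24 were tested. None passed the limma test and 0 had an unadjusted p under 0.05, against 0.251% and 12.0% of all tested genes. The median log2 fold change of the 24 was 0.024. The 4 with the smallest unadjusted p were NPM2, CPEB1, POU5F1 and NOBOX. NPM2, the oocyte nucleoplasmin that organises chromatin, averaged 2864 ± 600 in vivo against 2171 ± 290 in vitro (SD, n = 4 each; log2 fold change -0.38). CPEB1, which controls polyadenylation of stored mRNA, had 0.37, the pluripotency factor gene POU5F1 had 0.35 and the oocyte transcription factor gene NOBOX had 0.74 from a dim signal. With the EEF1A1 control ratio in the fit, CPEB1 passed with a log2 fold change of 0.50 (limma adjusted p = 0.0365). In that fit 302 probe sets passed, against 39 without the ratio. The other CPEB1 probe set had the opposite sign, at -0.26 without the ratio. Of 18 inflammasome and NOD genes, 15 were named and 9 tested. None passed the limma test and 0 had an unadjusted p under 0.05, beside the same 0.251% and 12.0% over all genes. Their median log2 fold change was 0.20, against -0.019 over all tested genes. Log2 fold changes were 0.37 for the inflammasome kinase NEK7 and 0.32 for the DNA sensor AIM2. From dim signals, they were 0.28 for the cytokine gene IL1B and -0.25 for CARD8. The other probe sets of AIM2 and IL1B were too dim to be tested. With an array left out, NEK7 lay between 0.22 and 0.51, AIM2 between 0.057 (without in vivo replicate 4) and 0.52, IL1B between 0.059 (without in vivo replicate 2) and 0.40, and CARD8 between -0.44 and -0.081 (without in vivo replicate 3).

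The genes whose pattern was most like that of each member were found by Pearson's r of log2 values over the 8 arrays, among 15144 named and tested probe sets. These correlations hold the difference between the groups as well as the spread within them, and they are a description with no test. Closest to NLRP5 were MAX (r = 0.981), which encodes the partner of MYC, MELTF (r = 0.977), encoding melanotransferrin, and TIPIN (r = 0.973), which encodes a replication fork protein. MAX averaged 1993 ± 755 in vivo against 871 ± 200 in vitro (SD, n = 4 each), with a log2 fold change of -1.15 (limma adjusted p = 0.106). MELTF had -1.16 and TIPIN -0.39, with limma adjusted p-values of 0.190 and 0.533. MAX passed without in vivo replicate 1, and with the EEF1A1 control ratio in the fit, with limma adjusted p-values of 0.0413 and 0.0344 in turn. MELTF also passed with that ratio, at a limma adjusted p of 0.0499. With that ratio 302 probe sets passed, against 39 without it.

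Closest to NLRP13 were the tRNA methyltransferase gene TRMT10B (r = 0.967), RCBTB2 (r = 0.967) and TBC1D24 (r = 0.960). TRMT10B averaged 116 ± 27.3 in vivo against 250.2 ± 41.2 in vitro (SD, n = 4 each), a log2 fold change of 1.07 (limma adjusted p = 0.106). It passed with the EEF1A1 control ratio in the fit (limma adjusted p = 0.0414), where 302 probe sets passed. RCBTB2 had a log2 fold change of 0.75 and TBC1D24 had 1.08, the latter from dim signals of 18.6 ± 13.0 in vivo against 44.9 ± 11.2 in vitro (SD, n = 4 each). Closest to OOEP were TMC6 (r = 0.952), METTL22 (r = 0.946) and ACBD3 (r = 0.939), a Golgi protein gene. Their log2 fold changes were -0.38, -0.18 and -0.19, and none passed (limma adjusted p of 0.701, 0.785 and 0.749).

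**Figure D4:**
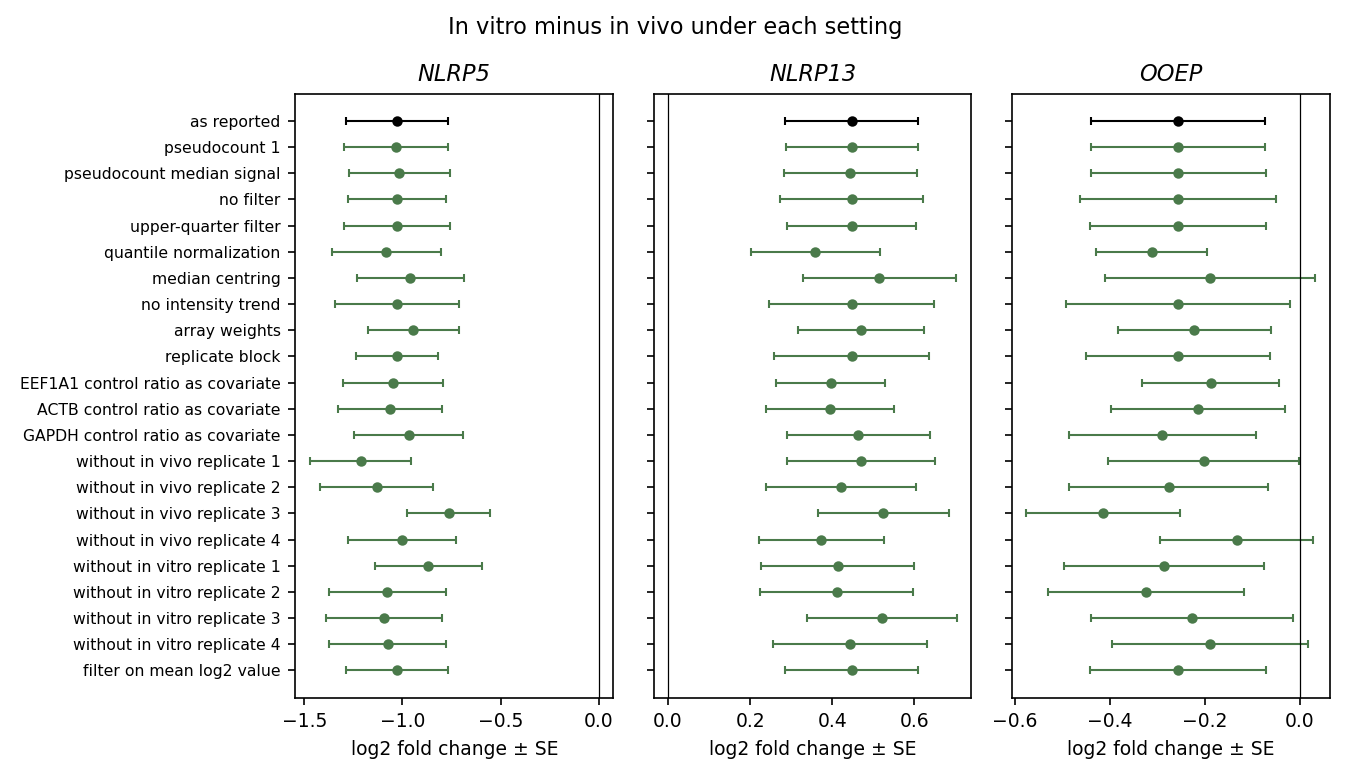
Log2 fold change, in vitro minus in vivo, with its SE (horizontal axes, with a different scale in each panel) of NLRP5, NLRP13 and OOEP as reported and under 21 other settings of the analysis. NLRP5 stays between -1.21 and -0.77, NLRP13 between 0.36 and 0.52 and OOEP between -0.41 and -0.13.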

How the data were processed

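Per the labels' protocols, RNA of pools of 4 oocytes was purified, amplified in 2 rounds and labelled with biotin. The authors computed the deposited intensity values with MAS5, per the submitters' processing notes, and the values are linear; the version is not given in the sources used here. The tests used the 52766 probe sets that remained of 52865 after 99 controls were removed. Of these, 24956 had 1 symbol in the platform annotation, 361 several and 27449 none, and 0 symbols changed through RefSeq.

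Values were taken as log2(signal + 8.2), 8.2 being the 25th percentile of the signals, and a fold change on this scale understates changes of dim genes. The 26378 probe sets above the 50th percentile of mean signal were tested with limma 3.58.1 in R 4.3.3 (lmFit, eBayes with intensity trend, Benjamini-Hochberg adjustment at 0.05). The fit was also run on simulated independent values with the same SD in both groups. That run does not cover the unequal spread of these groups or quality differences between arrays. The number of arrays limits the precision. A list counts each gene at its brightest probe set. Pairs of members were compared by exact permutation over 70 assignments.

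Members, lists and tests were chosen with earlier results of these data known. Named are every gene of the complex, NLRP and KH-domain lists, the 4 smallest unadjusted p-values of the other lists and the 3 genes most correlated with each member. Alternatives were other pseudocounts (1 and 27.7), filters, normalizations, variance models, control ratios as covariates, a replicate block and each array left out. A filter on the mean log2 value, the settings of the spread within groups and those of INHBA and STAR were added after seeing the data.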

Additional observations from a re-analysis of the deposited data

Results flagged for a closer look

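In groups of 4 arrays, 4 values stood apart from the other 3 by more than Dixon's 95% critical value for 4 samples allows, among 70 groups examined, and chance alone gives about 1 in 20. For NLRP5, in vitro replicate 1 was at 793 while the other in vitro arrays lay between 1221 and 1271. The brightest NLRP7 probe set was at 1536 on in vivo replicate 4 and between 1220 and 1268 on the other in vivo arrays. MELTF and TIPIN, the genes with patterns close to that of NLRP5, were high on in vivo replicate 3. MELTF was at 671 there and between 246 and 314 on the other in vivo arrays, and TIPIN was at 587 and between 392 and 419.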

How the results depend on the processing

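NLRP5, NLRP13 and OOEP kept their sign and did not pass under any of the 21 alternatives tried for each, with limma adjusted p-values from 0.0600 to 0.501, 0.163 to 0.653 and 0.382 to 0.833. With a replicate block the log2 fold change of NLRP5 was -1.03 (limma adjusted p = 0.104). The labels do not say whether the replicate numbers pair the arrays. Same-numbered arrays correlated by -0.045 to 0.011 in their deviations from the group mean, and no in vitro array correlated best with its own number. These correlations showed no sign of pairing, but so few arrays cannot exclude it. MAX passed with this block (limma adjusted p = 0.0486).

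With an array left out, NLRP5 minus NLRP13 changed by between -1.68 and -1.28, NLRP5 minus OOEP by between -1.01 and -0.35 and OOEP minus NLRP13 by between -0.94 and -0.51. NLRP5 minus NLRP13 passed without in vivo replicate 1 or 3, NLRP5 minus OOEP without in vivo replicate 1 and OOEP minus NLRP13 without in vivo replicate 3 (each an exact permutation p, adjusted over 3 pairs, of 0.0429). As the genes were chosen with earlier results of these data known, these passes are no independent test. For NLRP5 minus NLRP13 the unadjusted exact permutation p was 0.0286 with all arrays and in both of these fits, and the adjusted one was smaller where another pair also had 0.0286. The count of 39 passing probe sets became 7 without the intensity trend, 88 with array weights, 302 with the EEF1A1 ratio and 62 with the beta-actin ratio, and lay between 19 and 96 with an array left out. It was 72 and 96 without in vivo replicates 1 and 4, and 19, 23 and 21 without in vitro replicates 1, 2 and 3. The count of maternal effect genes became 1 with the EEF1A1 ratio, and the counts of the other 4 lists stayed at 0. The cause of these shifts was not tested.

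Genes near 0 took either sign. NLRP11 had 0.054 with median centring, 0.092 with the EEF1A1 ratio and 0.042 with the beta-actin ratio, NLRP4 had 0.0047, 0.089 and 0.015 under the same settings, and KHDC3L had -0.014 with quantile normalization, -0.094 with array weights and -0.11 with the GAPDH ratio. The NLRP7 probe set at 0.0077 had -0.0077 with array weights. With an array left out, NLRP11 lay between -0.14 and 0.15, NLRP4 between -0.21 and 0.19, KHDC3L between -0.16 and 0.20, this NLRP7 probe set between -0.27 and 0.25, and the brighter one of NLRP14 between -0.20 and 0.0066.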
